A study of Arabidopsis thaliana with 6 samples.

Results

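The report covers the alternative 5′ splice site bins of Arabidopsis thaliana seeds, that is, exon stretches that are kept or removed according to which of 2 neighbouring 5′ splice sites (donors) is joined to the next exon. Bins were taken when they carried the label Alt5ss or Alt5ss* in the deposited table of splice junctions, when reads were listed both for a junction that keeps the bin and for a junction that skips it, and when these junctions held at least 10 reads in each condition. These criteria gave 161 bins in 157 genes, of 1783 bins with either label and of 71928 lines with both kinds of junction in the whole table. None was lost to the read minimum, and the bins nearest to it were those of ACHT4, an atypical thioredoxin, with 69 junction reads in all, and of AT4G33130.

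Wild-type Col-0 seeds were studied in 2 conditions, with 3 libraries each, made from whole seeds. The Rp seeds received a red pulse of 20 min (calculated Pfr/P 0.87, at 0.05 µmol m-2 s-1) and were collected 12 h later. The FRp seeds received a far-red pulse of 20 min (calculated Pfr/P 0.03, at 42 µmol m-2 s-1) and were collected at the same time. All seeds of both conditions had first imbibed water for 2 h in darkness, had been given a far-red pulse to bring Pfr to an equal low level, and had then spent 3 days in the cold (5 °C) without light. The comparison asks how the light pulse bears on the choice of splice sites. PolyA RNA of whole seeds mixes the tissues of the seed. A change in the cells present and a change within cells therefore cannot be told apart. Genes for seed storage proteins marked the tissue in both conditions, although at different levels: CRA1, a cruciferin, averaged 2932 ± 484 CPM (gene reads scaled to library size) in Rp seeds and 60107 ± 4798 CPM in FRp seeds (SD, n = 3 each). Genes of other tissues were looked at too. RBCS1A, a gene of green tissue, averaged 654 ± 125 CPM in Rp seeds and 306 ± 52.1 CPM in FRp seeds. RCA, also of green tissue, averaged 11.8 ± 2.65 CPM in Rp seeds and 20.2 ± 4.37 CPM in FRp seeds. VGD1, a pollen gene, did not pass the filter on low counts.

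As background, a donor marks the start of an intron and is first read by the U1 small nuclear ribonucleoprotein, which pairs with the last bases of the exon and the first bases of the intron. Where 2 donors compete for 1 acceptor, the upstream donor gives the shorter exon and the downstream donor the longer one. A distance divisible by 3 keeps the reading frame downstream, unless the added stretch carries a stop codon. Transcripts with a stop codon far upstream of the last junction can be degraded by nonsense-mediated decay. The measure used here, PSI (percent spliced in), is the share of junction reads that keep the bin, and so the share of use of the downstream donor.

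The closest donors are shown because they make up the most frequent distances, with the positions of each stretch on TAIR10. The sequence runs 5′ to 3′ on the gene's strand, and capitals mark the first 2 intron bases at each of both donors, the upstream one first. These are the 11 pairs that lie 3 nt apart, all within coding sequence.
MMZ3 (chr2:15143467-15143485, minus strand): ctcacaacGTaGTtatatc
UEV1D-4 (chr3:19495258-19495276, minus strand): ctcacaacGTaGTtatatc
B ALPHA (chr1:19167558-19167576, plus strand): taccagtgGTaGTtgtacc
ATB BETA (chr1:6096205-6096223, minus strand): tgcctgtgGTaGTtgtact
CKB4 (chr2:18427192-18427210, minus strand): ataccaagGCaGTatcctt
CKB3 (chr3:22270985-22271003, minus strand): attccaagGCaGTatcctt
PUR ALPHA-1 (chr2:13643259-13643277, minus strand): caaatcagGTgGTattatc
SEC3A (chr1:17462217-17462235, plus strand): tcagccgtGTaGTccgtct
AT5G18630 (chr5:6203027-6203045, plus strand): tggtagagGTgGTaatgca
AT5G57290 (chr5:23207630-23207648, minus strand): ccgtcttcGTgGTatctct
AT1G06960 (chr1:2137136-2137154, plus strand): gaatgcctGTgGCaatttc

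Among these 11 pairs, 3 couples of related genes share the same arrangement. MMZ3 and UEV1D-4, both ubiquitin E2 variants that act with Ubc13-type enzymes, have identical letters over the printed 19 bases and 28 identical bases of 30 around the upstream donor. The casein kinase II regulatory subunit genes CKB4 and CKB3 share 26 of 30 bases, including an upstream donor that begins with GC. B ALPHA and ATB BETA, which encode B-type regulatory subunits of protein phosphatase 2A, share 23 of 30. These were the only 3 couples of donor pairs of equal distance with at least 21 identical bases of the 30.

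Pairs 4 nt apart were the most frequent, with 15 bins, and 5 of them are printed for the range of their use.
RAD23D (chr5:15407094-15407113, plus strand): ggagaagaGTggGTttaata
EDA3 (chr2:14709801-14709820, plus strand): atgagaagGTagGTataggt
AT4G26965 (chr4:13539821-13539840, plus strand): cggattcgGCgaGTattgtt
AT3G26085 (chr3:9530904-9530923, plus strand): tcgtccagGTagGTaagtgc
AT3G52260 (chr3:19384448-19384467, minus strand): atcccttgGTagGTaaaaac

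The labels were checked against the strand of each gene before any value was used. In 123 of the 161 bins the junctions differed at the donor, and these donor pairs carry the statements on distance, frame and donor sequence. In 24 bins, all labelled Alt5ss* and all in genes on the minus strand, the junctions shared the donor and differed at the acceptor (the 3′ splice site), against their label. Of the Alt5ss* bins on the plus strand, 9 were donor pairs and 2 had several junctions. On the minus strand none was a donor pair, with 24 acceptor pairs, 2 bins that differ at both ends and 5 with several junctions. Among bins labelled Alt3ss*, which are not members, 14 on the minus strand differed at the donor alone and 0 at the acceptor alone. On the plus strand 30 differed at the acceptor alone and 0 at the donor alone. Among starred bins that differed at 1 end, the labels therefore fitted the genes on the plus strand and were swapped on the minus strand. The meaning of the asterisk is not given in the sources used here. The other 14 bins were 4 whose junctions differ at both ends and 10 with several junctions on a side or with more than 1 site moved, and no distance was assigned to them.

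The donor pairs had the usual intron ends. The intron read from the downstream donor was GT–AG in 121 of 123 and GC–AG in 2, and that from the upstream donor was GT–AG in 119 and GC–AG in 4. RefSeq lists both introns for 117 of the 123 pairs, only the intron of the downstream donor for 5 and neither for 1. All 24 acceptor pairs were GT–AG on both sides and annotated. Among the 4 bins that differ at both ends, that of AT1G01100, a 60S acidic ribosomal protein gene, had junctions shifted by 3 nt at each end. The junction that keeps this bin has GT–AT ends, and the spliced products have the same length and differ in 2 bases. Its PSI stayed between 1.7% and 1.94% after the Rp and between 1.24% and 2.1% after the FRp, so these reads were rare in every library. Copies elsewhere in the genome were not searched for this bin. Whether its reads come from a splice form was not tested.

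Reads on genes overlapped between conditions, while the summed junction reads of these bins were lower after the FRp and their median per bin overlapped. Reads counted on genes ranged from 26057621 to 31286686 per library after the Rp and from 24234421 to 32387080 after the FRp. Reads on the junctions of the 161 bins summed to 47435, 44792 and 57315 in the Rp libraries, against 26986, 40605 and 36336 in the FRp libraries. The median per bin was 94, 79 and 113 reads in the Rp libraries, against 71, 104 and 96 reads in the FRp libraries. Between 2 and 7 bins in each library had fewer than 10 reads. No labels tie the libraries to a sequencing date or batch. Copies of the flanks were searched for the 147 donor and acceptor pairs. The flanks of 3 of them, in AT5G50565, AT5G50665 and AT5G57565, have exact copies of 25 bases on both sides elsewhere in the genome. The reads of these 3 bins are therefore uncertain, and the host gene NOXY2 overlaps another locus.

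Bins were taken only when both junctions were listed, so use of both donors was a condition of the selection and not a result. With all libraries pooled, PSI over the 123 donor pairs ran from 0.25% to 98.6% with a median of 42.0%, and lay between 10% and 90% in 90 pairs. The upstream donor was the more used one in 76 pairs and the downstream donor in 47. The acceptor pairs had a higher median, 66.4%, and none of the 24 was under 10%. The lowest PSI was that of emb2171, a ribosomal protein gene of the L14p/L23e family, with 0.25% of 16823 reads. The downstream donor dominated instead in SNRNP-G, a core protein gene of spliceosomal small nuclear ribonucleoproteins, with a PSI of 98.5% over a distance of 22 nt.

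Distances between the donors were short. They were under 10 nt in 43 pairs, 10 to 50 nt in 51, 51 to 150 nt in 23 and over 150 nt in 6. The single distances with the most bins were 4 nt with 15, 3 nt with 11 and 6 nt with 6. The 3-nt and 6-nt pairs were all coding, while 8 of the 15 pairs at 4 nt lay outside coding sequence. The longest were those of RS41 (701 nt) and RS31a (556 nt), both genes of RS-type SR splicing factors, followed by AT5G62950 (340 nt).

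**Figure D1:**
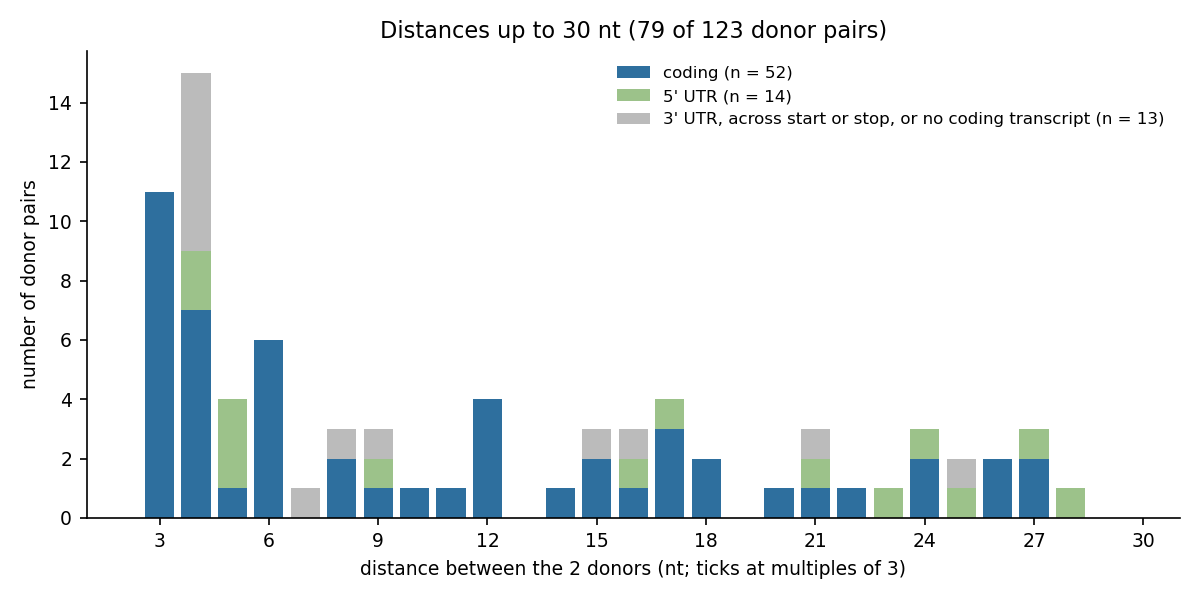
Number of donor pairs (y axis) at each distance between the 2 donors up to 30 nt (x axis, ticks at multiples of 3), which takes in 79 of the 123 pairs; colours give the region of the bin in RefSeq transcripts. The bars at 3 nt (11 pairs) and 6 nt (6 pairs) are all coding, and the tallest, at 4 nt, holds 15 pairs of which 7 are coding.

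PSI had little relation to distance. The median was 44.1% under 10 nt, 42.6% at 10 to 50 nt, 38.5% at 51 to 150 nt and 23.7% over 150 nt, the last from only 6 pairs. Spearman's rho between PSI and distance was -0.07 over the 123 pairs (Pearson's r -0.07). It is a description over bins that share the same 6 libraries. In single libraries rho lay between -0.08 and -0.02 after the Rp and between -0.09 and -0.04 after the FRp. PSI covered nearly the whole scale within the shorter classes, from 2.45% to 92.9% under 10 nt and from 1.60% to 98.6% at 10 to 50 nt.

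**Figure D2:**
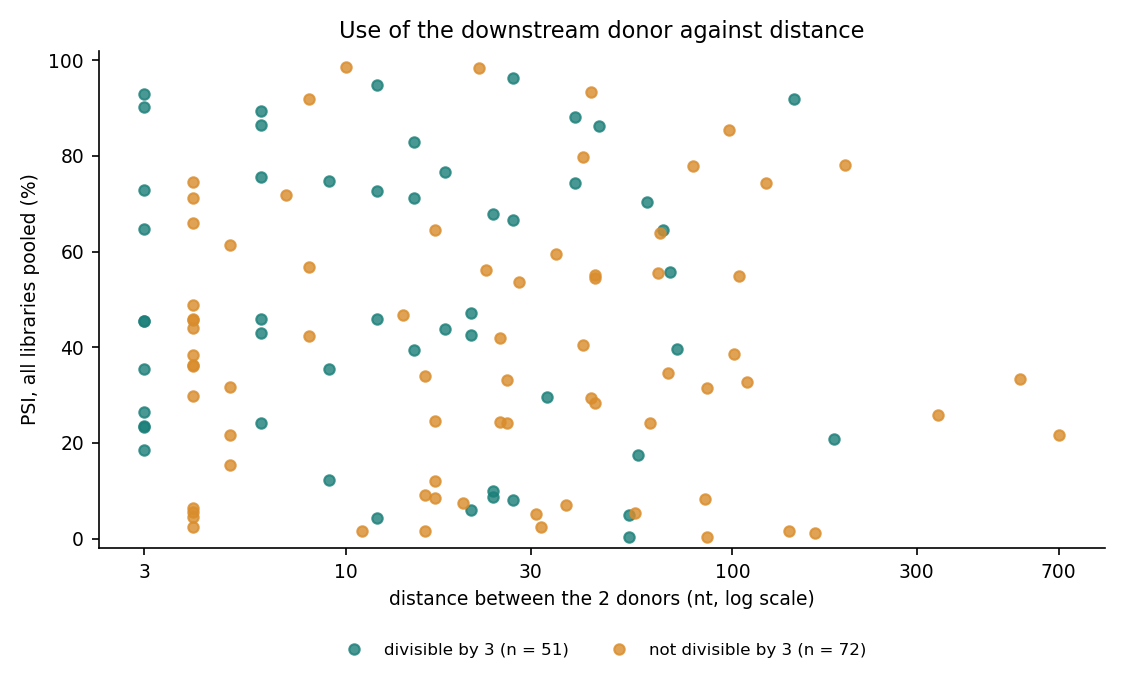
PSI of the 123 donor pairs with reads of all libraries pooled (y axis, percent) against the distance between the donors (x axis, nt, log scale), coloured by whether the distance is divisible by 3. Points spread from 2.45% to 92.9% under 10 nt, from 1.60% to 98.6% at 10 to 50 nt and from 0.25% to 92% at 51 to 150 nt. The pairs over 300 nt lie between 21.6% and 33.3%.

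The 3-nt pairs show how far PSI varied at 1 fixed distance. It ran from 18.4% in SEC3A, an exocyst gene, to 92.9% in AT1G06960, an RNA-binding protein gene whose downstream donor begins with GC. In MMZ3 PSI was 32.6%, 36.3% and 35.1% after the Rp, against 38.5%, 37.5% and 33.3% after the FRp. Its relative UEV1D-4, with the same donor letters, had 19.1%, 22.5% and 19.5% after the Rp and 29.3%, 31% and 23.2% after the FRp. The MMZ3 values overlapped between conditions and those of UEV1D-4 did not, with adjusted p 0.95 and 0.65 in edgeR's quasi-likelihood test. CKB3 ran from 14.4% to 28.1% after the Rp and from 23.9% to 25.5% after the FRp. CKB4 was used more at the downstream donor, from 43.7% to 56% after the Rp and from 37.7% to 49.0% after the FRp. B ALPHA lay between 60% and 73.4% after the Rp and between 71.4% and 80.0% after the FRp, and ATB BETA between 29.6% and 49.0% after the Rp and between 47.1% and 52.9% after the FRp. So genes with nearly the same letters at the donors differed in PSI within each condition. None of the 11 pairs passed the test between conditions, and their largest difference was 8.22 points.

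PSI of the 4-nt pairs ran from 2.45% in RAD23D, a gene of the ubiquitin receptor family Rad23, to 74.5% in AT4G33130, with a median of 38.3%. The printed examples lie at 2.45% for RAD23D, 5.51% for EDA3, 29.8% for AT4G26965, 45.7% for AT3G26085 and 71.3% for AT3G52260.

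A distance divisible by 3 was found in 51 of the 123 donor pairs (41.5%), with different shares by region. In coding sequence 39 of 69 pairs (56.5%) were divisible, against 8 of 35 (22.9%) in 5′ UTRs and 2 of 14 (14.3%) in 3′ UTRs. Another 4 pairs span a start or stop codon and 1 lies in a gene without a coding transcript. The median PSI over all libraries was 45.8% for divisible distances and 35.4% for the others. In coding sequence the medians were closer, 45.5% and 43.3%, while in 5′ UTRs they were 54.6% over 8 pairs and 31.7% over 27. The overall gap of 10.4 points therefore narrowed to 2.23 points within coding sequence, a split chosen after seeing the data.

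The gap between divisible and other distances was present in every library. The median PSI of divisible pairs was 44.4%, 45.7% and 46.3% in the Rp libraries, against 49.0%, 47.4% and 52.9% in the FRp libraries. That of the other pairs was 37.9%, 39.0% and 39.9% after the Rp, against 36.8%, 34.8% and 31.9% after the FRp. So the gap was 6.57, 6.75 and 6.31 points in the Rp libraries, against 12.2, 12.6 and 21.1 points in the FRp libraries, without overlap. The median change of single pairs, Rp minus FRp, did not follow this gap. It was 1.83 points over the 49 tested divisible pairs (26 higher, 23 lower) and 1.28 points over the 70 others (41 higher, 29 lower). The pairs without overlap between conditions did lean that way. Of the divisible ones 6 were higher after the Rp and 9 lower, and of the others 16 were higher and 6 lower. Of all events, 9.82% were higher and 8.8% lower without overlap, and the split was not tested. The gap depended on how reads were combined: with the reads of each condition pooled before the median, it came to 9.25 points in Rp seeds and 13 points in FRp seeds. The divisible pairs then had medians of 48.2% after the Rp and 48.1% after the FRp, and the others 38.9% and 35.1%. Within coding sequence the pooled medians of divisible and other pairs hardly differed between conditions. They were 48.2% and 42.8% after the Rp, against 48.1% and 42.8% after the FRp. In 5′ UTRs they were 55.4% and 31.9% after the Rp, against 50.7% and 31.5% after the FRp. Over all 161 bins the library medians averaged 44.4 ± 0.663% in Rp seeds and 44.0 ± 2.64% in FRp seeds (SD, n = 3 each).

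**Figure D3:**
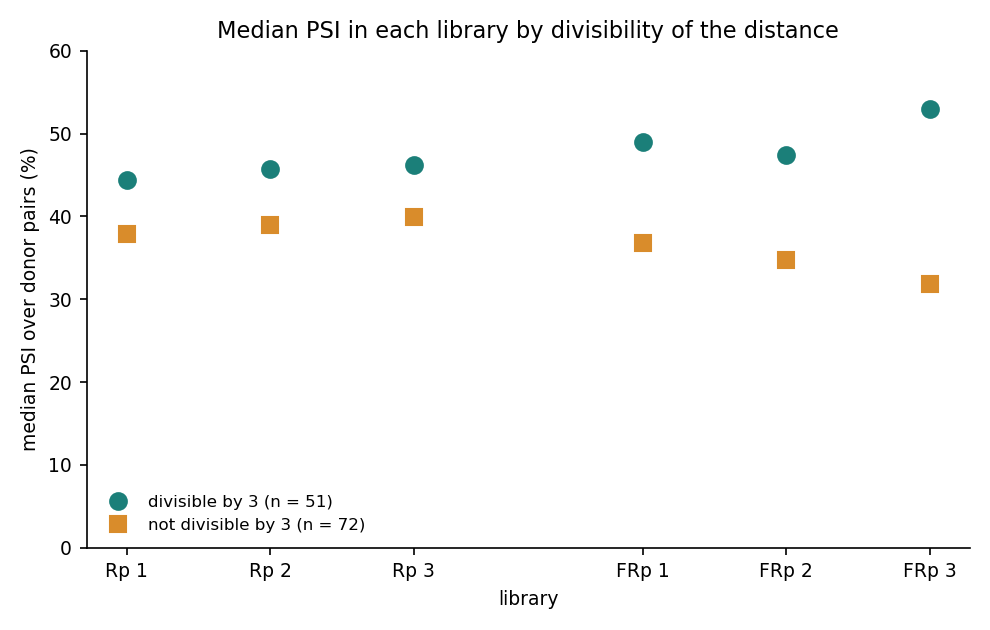
Median PSI over donor pairs in each library (y axis, percent), for distances divisible by 3 (circles, 51 pairs) and other distances (squares, 72 pairs), with the 3 Rp libraries left of the 3 FRp libraries. Circles lie above squares in all 6 libraries, by 6.31 to 6.75 points after the Rp and by 12.2 to 21.1 points after the FRp.

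Reading frames were followed through the RefSeq transcripts of the coding pairs. An early stop, here a stop codon more than 50 nt upstream of the last junction, was predicted for 1 of the 2 forms in 20 of the 69 pairs. Of the divisible pairs, 5 of 39 carried it, each time in the longer form, and 34 had no such stop in either form. Of the other pairs, 15 of 30 carried it, 9 in the longer form and 6 in the shorter form. The form with the early stop was the less used one in 19 of the 20. The exception was bHLH121, a basic helix-loop-helix transcription factor gene, where the longer form carries the stop and made up 77.8% of 798 reads. At the other end, emb2171 made 0.25% of its reads in the form with the stop. Between conditions, the form with the early stop was the higher one after the Rp in 9 of the 20 pairs and the lower one in 11, with a median change of -0.75 points, and none of the 20 passed the test.

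The strength of the donors was scored from 3 exon and 6 intron bases. The score is the sum of log2 ratios of each base's frequency at 68056 constitutive introns of the same table to 0.25, so a higher score means more like the common donor. At those introns the last exon base was G in 79.1% and the fifth intron base was G in 51.4%. The more used donor had the higher score in 70 of the 123 pairs (56.9%). Spearman's rho between PSI and the score of the downstream minus that of the upstream donor was 0.31 over all pairs. It was 0.52 over the 43 pairs under 10 nt, where the windows scored can overlap, and 0.25 over the other 80. PSI was related about as much to other traits over all pairs, with a rho of -0.30 with the number of reads and 0.29 with the share of G and C in the bin. Over the 35 pairs in 5′ UTRs, rho of PSI with the number of reads was -0.68. In the 15 pairs where the downstream donor scored higher by more than 3, the median PSI was 70.5%, against 34.0% in the 19 where it scored lower by more than 3 and 38.5% in the 89 between. In the 4-nt pairs the downstream donor scored higher in 12 of 15, and the more used donor had the higher score in 6 of 15, a share not tested against the other pairs.

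**Figure D4:**
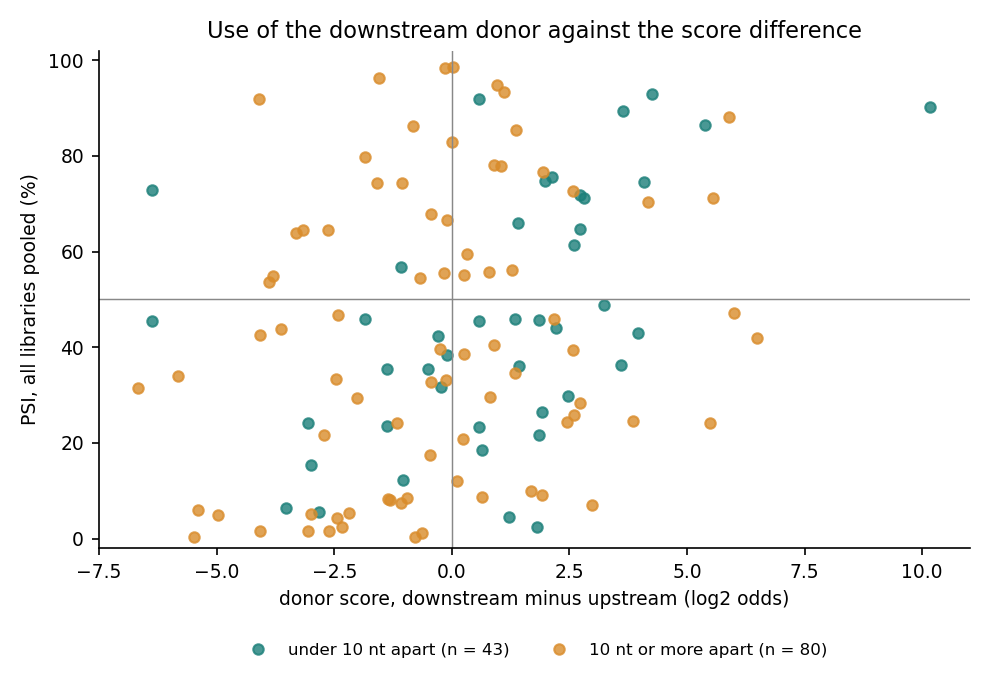
PSI of the donor pairs with reads of all libraries pooled (y axis, percent) against the score of the downstream minus the upstream donor (x axis, log2 odds), for pairs under 10 nt apart and pairs 10 nt or more apart. Grey lines mark 50% and equal scores; the more used donor has the higher score in 70 of 123 pairs, those in the upper right and lower left.

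Between conditions, 156 of the 161 bins had enough reads to be tested, and 4 (2.56%) were called at an adjusted p under 0.15 with a difference over 0.5 points in edgeR's quasi-likelihood test on inclusion and exclusion reads. Over all 28466 events tested in the table, which take in introns, exon bins, skipped exons and both kinds of alternative site, 2.46% were called. PSI was lower after the Rp in 3 of the called bins and higher in 1, where all events gave 1.44% lower and 1.02% higher. Only 2 of the 4, in AT2G04690 and GBF3, were donor pairs. The count was 1 without Rp replicate 1 and 2 without FRp replicate 2. At an unadjusted p under 0.05 there were 18 bins, which is read against 12.7% of all events. The 5 bins not tested lie in PPR596, CID8, AT4G33130, ACHT4 and AT3G07215.

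The lowest adjusted p was that of ATU2AF65A, the gene of the large subunit of the U2 auxiliary factor, which binds the pyrimidine tract before the acceptor. Its bin of 173 nt lies on chromosome 4 from 17294431 to 17294603 within coding sequence and is one of those that differ at the acceptor. PSI was 37.9%, 37.3% and 42.4% after the Rp, against 71.8%, 76.1% and 67.3% after the FRp, from 283 to 700 reads per library. All Rp libraries lay below all FRp libraries, and PSI fell by 33.4 points (log2 ratio of inclusion to exclusion -1.99 ± 0.43 SE, adjusted p = 0.00149 in edgeR's test).

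The donor pair of AT2G04690, a gene of the pyridoxamine 5′-phosphate oxidase family, lies 35 nt apart in coding sequence on chromosome 2 from 1646032 to 1646066. It is printed with capitals at the first 2 intron bases of each donor.
AT2G04690 upstream donor (chr2:1646024-1646043, plus strand): gccaagtcGTaagtacattg
AT2G04690 downstream donor (chr2:1646059-1646078, plus strand): aaacatcgGTaatctctgag
The scores of these donors were close, 4.81 for the downstream and 4.49 for the upstream one. PSI was 36.9%, 38.9% and 43.3% after the Rp, against 69.1%, 60.5% and 71.1% after the FRp, with no overlap. It fell by 26.7 points (log2 ratio -1.63 ± 0.45 SE, adjusted p = 0.0316 in edgeR's test). Without Rp replicate 1 the adjusted p was 0.153. The gene itself fell by 2.07 on the log2 scale, and the junctions held 134 to 222 reads in the Rp libraries, against 456 to 787 in the FRp libraries.

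GBF3 encodes a bZIP factor that binds G-box elements. Its donors lie 69 nt apart, from 19002162 to 19002230 on chromosome 2, so both forms keep the frame, with proteins of 382 and 359 residues in RefSeq.
GBF3 upstream donor (chr2:19002154-19002173, plus strand): ctcctggtGTaagtgcaaat
GBF3 downstream donor (chr2:19002223-19002242, plus strand): ggcttcagGTaccctgtgac
PSI was 39.4%, 33.9% and 36.6% after the Rp, against 71.4%, 65.9% and 70.6% after the FRp, again without overlap. It fell by 32.1 points (log2 ratio -1.95 ± 0.60 SE, adjusted p = 0.0790 in edgeR's test). Leaving out any of the 6 libraries ended this call, with adjusted p from 0.157 to 0.205.

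MAF1, a MADS-box gene related to the flowering repressor FLC, had the only called bin with a higher PSI after the Rp. Several junctions are listed for this bin, so it is not a simple donor pair. PSI was 94.9%, 83.3% and 86.9% after the Rp, against 68.2%, 67.9% and 63.6% after the FRp (log2 ratio 1.95 ± 0.63 SE, adjusted p = 0.102 in edgeR's test). The libraries did not overlap. Leaving out a library gave adjusted p from 0.1003 to 0.348, and the call held only without Rp replicate 2. Exclusion reads were counted with a weight of 2 here because inclusion junctions are listed on both sides. With a weight of 1 PSI came to 93.9% in Rp seeds and 79.8% in FRp seeds, a difference of 14.1 points.

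**Figure D5:**
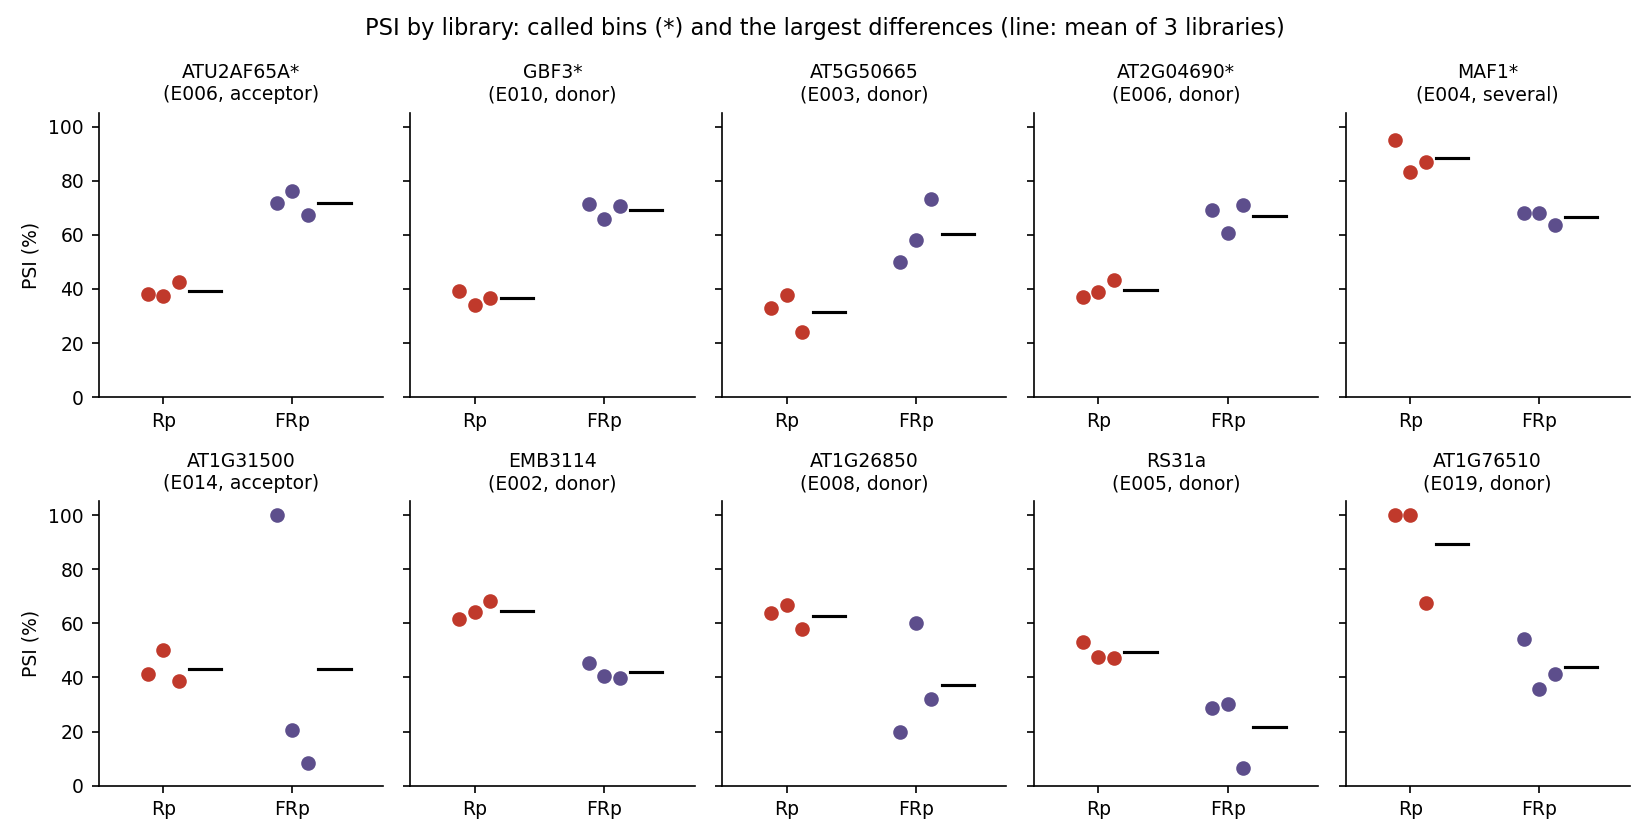
PSI (y axis, percent) in each of the 3 Rp libraries (left in each panel) and the 3 FRp libraries (right) for the 4 called bins, marked with an asterisk, and the other bins among the 10 largest differences; the line is the mean of 3 libraries. The called bins show separate groups, while AT1G31500 and AT1G26850 overlap between conditions.

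The other bins among the 10 largest differences did not pass the test. In AT1G76510, which encodes an ARID domain protein, PSI of a pair 23 nt apart in the 5′ UTR was 100%, 100% and 67.6% after the Rp, against 54.2%, 35.7% and 41.4% after the FRp, from 7 to 42 reads per library (adjusted p = 0.183). Without Rp replicate 3 its adjusted p was 0.0441. In EMB3114, of the mitochondrial transcription termination factor family, PSI was 61.4%, 64.1% and 68.4% after the Rp, against 45.5%, 40.5% and 39.6% after the FRp (adjusted p = 0.172 in edgeR's test). Its downstream donor scored 6.41 and its upstream donor 10.2, so the weaker donor was the more used one after the Rp. AT5G50665, whose reads are uncertain because of the copied flanks, had 32.9%, 37.9% and 24.1% after the Rp, against 50%, 57.9% and 73.1% after the FRp. AT1G26850 had 63.6%, 66.7% and 57.9% after the Rp, against 20%, 60% and 32% after the FRp. AT1G31500, an acceptor pair, had 41.2%, 50% and 38.6% after the Rp, against 100%, 20.7% and 8.33% after the FRp, where the value of 100% came from 1 read.

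The 2 pairs farthest apart lay in genes of splicing factors. In RS31a the donors are 556 nt apart.
RS31a upstream donor (chr2:19138375-19138394, minus strand): gaagtctgGTaaaacgtttt
RS31a downstream donor (chr2:19137819-19137838, minus strand): tgatgcagGTgttgtatatt
PSI was 52.9%, 47.6% and 47.1% after the Rp, against 28.6%, 30% and 6.67% after the FRp, from 17 to 40 reads per library (adjusted p = 0.394 in edgeR's test). RS41 went the other way over its 701 nt.
RS41 upstream donor (chr5:21131179-21131198, plus strand): gaaagctgGTaagtcttggt
RS41 downstream donor (chr5:21131880-21131899, plus strand): aatgcaagGTctgtaaaact
PSI was 21.8%, 18.5% and 14.7% after the Rp, against 42.2%, 27.9% and 25.2% after the FRp (adjusted p = 0.390). In both genes the upstream donor scored higher and was the more used one over all libraries. In both the longer form carries an early stop in RefSeq, with 53 residues against 250 in RS31a and 55 against 357 in RS41. In AT5G62950 PSI was 12.9%, 15.4% and 19.6% after the Rp and 34.1%, 34.4% and 28.6% after the FRp, over 340 nt of 5′ UTR. LIF2, whose donors lie 183 nt apart in the 5′ UTR, had 36%, 28.1% and 25.6% after the Rp, against 13%, 15.4% and 13.2% after the FRp (adjusted p = 0.369). Of the 6 pairs over 150 nt, the conditions did not overlap in 5, where 18.6% of all events did not, with PSI higher after the Rp in RS31a, LIF2 and ARF1 and lower in RS41 and AT5G62950. None of the 6 passed the test.

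Over the 156 tested bins, the 3 Rp libraries did not overlap the 3 FRp libraries in 46 (29.5%), against 18.6% of all events. PSI was higher after the Rp in 28 of them (9.82% of all events were) and lower in 18 (8.8% of all events were). The absolute difference exceeded 10 points in 44 bins, against 1326 of all 28466 events. Its median was 5.20 points, against 0.92 points over all events. All events include introns and exon bins besides alternative sites, and these shares and medians were not compared with like kinds of event alone. Among donor pairs, 37 of 119 did not overlap. Without overlap, 8 of 33 pairs in 5′ UTRs were higher after the Rp and 2 lower, and 9 of 67 coding pairs were higher and 11 lower. Of the 49 divisible pairs 6 were higher and 9 lower without overlap, and of the 70 others 16 were higher and 6 lower. The difference between these splits was not tested. Across the 123 donor pairs, rho between the number of reads and the absolute difference was -0.51, so the larger differences came from bins with fewer reads.

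A few bins without overlap were picked out after their values were seen, because the bin was almost unused in 1 condition or because the gene is well known. AT4G13100, a RING/U-box gene, had 9, 12 and 18 reads from the downstream donor after the Rp, of 77, 52 and 92. After the FRp it had 0 of 9, 14 and 9 reads, which allows a share of up to 9.38% of the 32 reads together (counting error only). This bin was tested and was not called. AT3G02560, a ribosomal protein S7e gene, had 6, 6 and 7 such reads after the Rp, of 1022, 929 and 2016, and 0 after the FRp, of 445, 649 and 672. Its adjusted p was 0.0848, but the difference of 0.48 points was under the minimum of 0.5 points set for a call. In EDA3 PSI was 5.57%, 7.35% and 8.63% after the Rp, against 3.85%, 0% and 0% after the FRp (adjusted p = 0.152). In SIZ1, the gene of a SUMO ligase, the donors lie 41 nt apart in coding sequence, and PSI was 75.9%, 60.9% and 61.1% after the Rp, against 80.6%, 91.2% and 83.3% after the FRp (adjusted p = 0.453). ARF1, an auxin response factor gene, had 92.3%, 75% and 89.6% after the Rp, against 69.2%, 68.2% and 68.0% after the FRp, for donors 196 nt apart in its 5′ UTR (adjusted p = 0.457).

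The bins with the most reads differed little. AT5G57290, a 60S acidic ribosomal protein gene with donors 3 nt apart, had 236, 341 and 410 reads from the upstream donor after the Rp, of 3550, 2517 and 3240. After the FRp it had 163, 0 and 249, of 1495, 1424 and 2062. FRp replicate 2 stands apart from the other 5 libraries, since 0 of 1424 reads allows a share of up to 0.211% (counting error only), where the other FRp libraries together had 11.6%. The adjusted p was 0.251 with all libraries and 0.937 without FRp replicate 2, while it was 0.0444 without FRp replicate 1 and 0.0121 without FRp replicate 3. Among the other alternatives it lay between 0.176 and 0.889. Among the acceptor pairs with many reads, AT3G06700 lay between 92.9% and 93.3% after the Rp and between 92.6% and 94.0% after the FRp, and AT3G53740 between 96.6% and 99.1% after the Rp and between 96.5% and 97.0% after the FRp.

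The 5 bins with PSI nearest 50% overlapped between conditions. AT5G51620, with several junctions, ran from 43.8% to 60.8% after the Rp and from 45.5% to 50% after the FRp. AT3G01850 ran from 46.1% to 56.6% after the Rp and from 41.8% to 48.0% after the FRp. AT2G20650, QUL1 and AT1G14270 were also near 50% over all libraries, and none of the 5 passed the test.

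Host genes were differentially expressed about as often as all genes tested. Of the 157 genes, 93 (59.2%) were differentially expressed in edgeR's test (over 1.5-fold, at an adjusted p below 0.05), against 55.6% of all 16924 genes tested. After the Rp 31 were higher and 62 lower, where 28.8% of all genes tested were higher and 26.8% lower. This split depended on the scaling of libraries: without TMM factors 54 were higher and 31 lower, and the median of all genes moved to 0.45 on the log2 scale, from 0.02 with them. Of the 46 bins that did not overlap, 29 lay in differentially expressed genes. ATU2AF65A fell by 1.10 and GBF3 fell by 1.17 on the log2 scale.

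Of 13 genes whose products act in the reading of the 5′ splice site, all were tested, 1 was higher and 5 were lower after the Rp, with a median log2 change of -0.57. Over all genes tested 28.8% were higher and 26.8% lower (55.6% in all). U1A, a protein of the U1 particle, averaged 58.8 ± 5.80 CPM after the Rp and 35.2 ± 4.59 CPM after the FRp (log2 change 0.74, adjusted p = 7.41e-05 in edgeR's test). U1-70K, which contacts SR proteins, averaged 135 ± 17.6 CPM after the Rp and 239 ± 16.1 CPM after the FRp (log2 change -0.82). The lower genes further included LUC7A (-0.60), LUC7B (-1.28) and LUC7RL (-0.65), relatives of the yeast U1 protein Luc7, and RBM25 (-1.47). U1C, PRP39A, PRP40A, PRP40B, PRP8A, FIO1 and SR45 did not pass both thresholds. Without TMM factors 2 of the 13 were higher and 2 lower, so the direction of the list depends on the scaling. None of these genes holds one of the 161 bins.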

How the data were processed

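PolyA RNA of whole seeds was sequenced in 6 libraries, grouped by their titles (3 Rp, 3 FRp) as separate biological replicates. The authors aligned paired reads to TAIR10 with TopHat2 2.1.1 and SAMtools 1.3 (submitters' notes) and deposited raw counts per gene, raw counts of reads per junction, and PSI per condition as a fraction of pooled reads. The deposited fraction served only as a check, and the recomputed PSI differed from it by more than 0.0001 in 1 bin (MAF1). There the largest difference was 0.134 as a fraction, and the exclusion reads of this bin were given a weight of 2 here. Whether counting used strand is not given in the sources used here. Bins were identified by the columns of the table, sequences came from the RefSeq copy of TAIR10.1, and genes were matched by locus.

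Inclusion and exclusion reads of all events were fitted together with edgeR 4.0.16 (R 4.3.3), with 1 coefficient per library. Events needed a mean of 10 junction reads per library in each condition, 5 reads on each side and a gene with a mean over 10 reads and a read density over 0.05. Benjamini-Hochberg adjustment ran over all of them. Gene counts were tested with TMM factors. DESeq2 1.42.0, limma 3.58.1 (pseudocount 0.5), other filters and leaving out libraries served as alternatives. Both tests were checked on simulated counts, with changes placed only in genes with many reads and in events with many reads and intermediate PSI. The check therefore does not cover bins with few reads or extreme PSI. Counts limit the precision of each PSI, and medians over bins are given without a test. Bins named with values were the called ones, the 10 largest differences, the 5 with most reads, the 5 nearest 50% (at least 100 reads), the 3 shortest and 3 longest distances with ties, those nearest the read minimum and those in splicing factor genes of the study. Any other bin named was chosen after its values were seen. The bins and gene lists were chosen with earlier results of these data known.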

Additional observations from a re-analysis of the deposited data

How the results depend on the processing

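The 4 called bins became 2 with the replicate block, 2 at an adjusted p under 0.05 and 2 with only 10 reads summed over each condition required. They became 1 with DESeq2 and 0 with limma. Over all events of the table the calls fell as well, from 699 to 210 with the block, 154 with DESeq2 and 138 with limma. At an unadjusted p under 0.05 there were 13 bins in limma, 12 in DESeq2 and 18 in edgeR (12.7% of all events in edgeR). Restricted to donor pairs, an alternative chosen after seeing the data, the count was 2. Leaving out a library gave 1 to 5. TMM on junction reads, the robust prior, a minimum of 30 reads and a difference over 10 points each kept 4. ATU2AF65A was called in 14 of 15 alternatives, AT2G04690 in 12, MAF1 in 5 and GBF3 in 4. Same-numbered libraries did not deviate together (correlations 0.01, -0.00 and 0.01 for junction ratios), so the replicate numbers are not taken as pairs. The block gave 93 host genes, as without it.

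With at least 100 reads in each condition, the gap between divisible and other distances was 14.7 points, rho of PSI with distance -0.13 and the share with the higher score at the more used donor 61.1%. In coding sequence alone the gap was 2.23 points, and with acceptor pairs added rho was -0.12, both chosen after seeing the data. Leaving out a library gave a gap of 9.16 to 12.2 points, and a difference in the median PSI of all bins from -0.85 to 1.80 points. The causes were not tested. Of the 156 tested bins, 44 differed by over 10 points and 4 were called, against 1326 and 699 of all 28466 events. Over the donor pairs, rho of the absolute difference with reads was -0.51.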

Other observations

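Among acceptor pairs, which the label places with the donors, the absolute difference between conditions and the distance had a rho of 0.68 over 24 bins, against 0.18 over the 123 donor pairs. PSI of acceptor pairs under 10 nt had a median of 86.8% over 9 bins, and the 12 bins at 10 to 50 nt had 62.4%. The read number and the absolute difference had a rho of -0.53 in the acceptor pairs, and its part in the relation with distance was not tested.

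Donor pairs in 3′ UTRs were mostly close together, with a median distance of 7.5 nt over 14 pairs, against 14 nt over 69 coding pairs and 44 nt over 35 pairs in 5′ UTRs. Their median PSI was 46.6%, against 45.4% in coding sequence and 32.7% in 5′ UTRs.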
